A study of Danio rerio with 39 samples.

Results

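The mesoderm genes tbxta, tbxtb, tbx16, tbx16l, tbx6, msgn1 and eomesa, were followed in whole zebrafish embryos exposed to gamma rays up to gastrulation. They were chosen by name as the T-box genes of the early mesoderm together with msgn1, and make up 7 of the 32057 genes in the count tables. Embryos of the AB strain were irradiated continuously with a caesium source from shortly after fertilisation and collected at the shield stage, alongside non-exposed embryos of the same irradiation batch. Each dose rate had its own batch. Embryos at 0.005 mGy/h (3 libraries) were set against 4 controls of batch I14, embryos at 0.05 mGy/h (4 libraries) against 4 controls of batch I13, embryos at 0.5 mGy/h (6 libraries) against 6 controls of batch I32, and embryos at 5 mGy/h (6 libraries) against 6 controls of batch I30. Every library came from a pool of embryos drawn from a batch's mixed spawns, so p-values measure the spread between pools within 1 batch. Because each dose rate was applied in 1 batch, the dose rate and the batch cannot be told apart when dose rates are compared.

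The T-box proteins are transcription factors that share a DNA-binding domain, the T-box. In the fish gastrula they are switched on in the ring of cells at the blastoderm margin by Nodal, Fgf and Wnt signals, and they decide which of these cells become mesoderm. tbxta and tbxtb are the fish copies of Brachyury and act in the notochord and tail, tbx16 (the spadetail gene) drives trunk mesoderm, and tbx6 is needed later for the segmentation of the presomitic mesoderm. msgn1 encodes a basic helix-loop-helix factor that helps mesoderm progenitors to leave the margin, and eomesa, supplied in part by the mother, acts with Nodal in mesendoderm.

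Each library held between 9845688 and 57169053 counts assigned to genes (median 25507778). At 5 mGy/h the exposed libraries were deeper (20896629 to 45879001 counts) than their controls (9845688 to 25507778). The study had left 8 of the 39 libraries out of its tests after clustering, among them exposed replicates 2 and 6 and control replicates 1 and 2 at 5 mGy/h. All 39 were kept here, and values without the 8 are given where they change a result. Of the 39 libraries, 1 had 35.7% of its reads at several places in the genome, and the others at most 18.1%.

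All 7 symbols were found, but not all in the same way. tbxtb was taken as the gene listed under TBXT (ENSDARG00000039806). eomesa could not be settled, because 2 genes are listed as EOMES with no copy letter. The first (ENSDARG00000006640) had 119 to 2168 counts per library and is reported as EOMES. The other (ENSDARG00000104243) had no more than 9 counts in any library, was at 0 in 16 of them, and did not pass the filter on low counts in any comparison. The remaining members had counts in every library, from 35 to 377 counts for tbx6 up to 7830 to 47853 counts for tbxta. Values are given in CPM, counts scaled to a library of fixed size by the TMM method, and are not set against each other between genes, because transcript lengths were not used here.

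**Figure D1:**
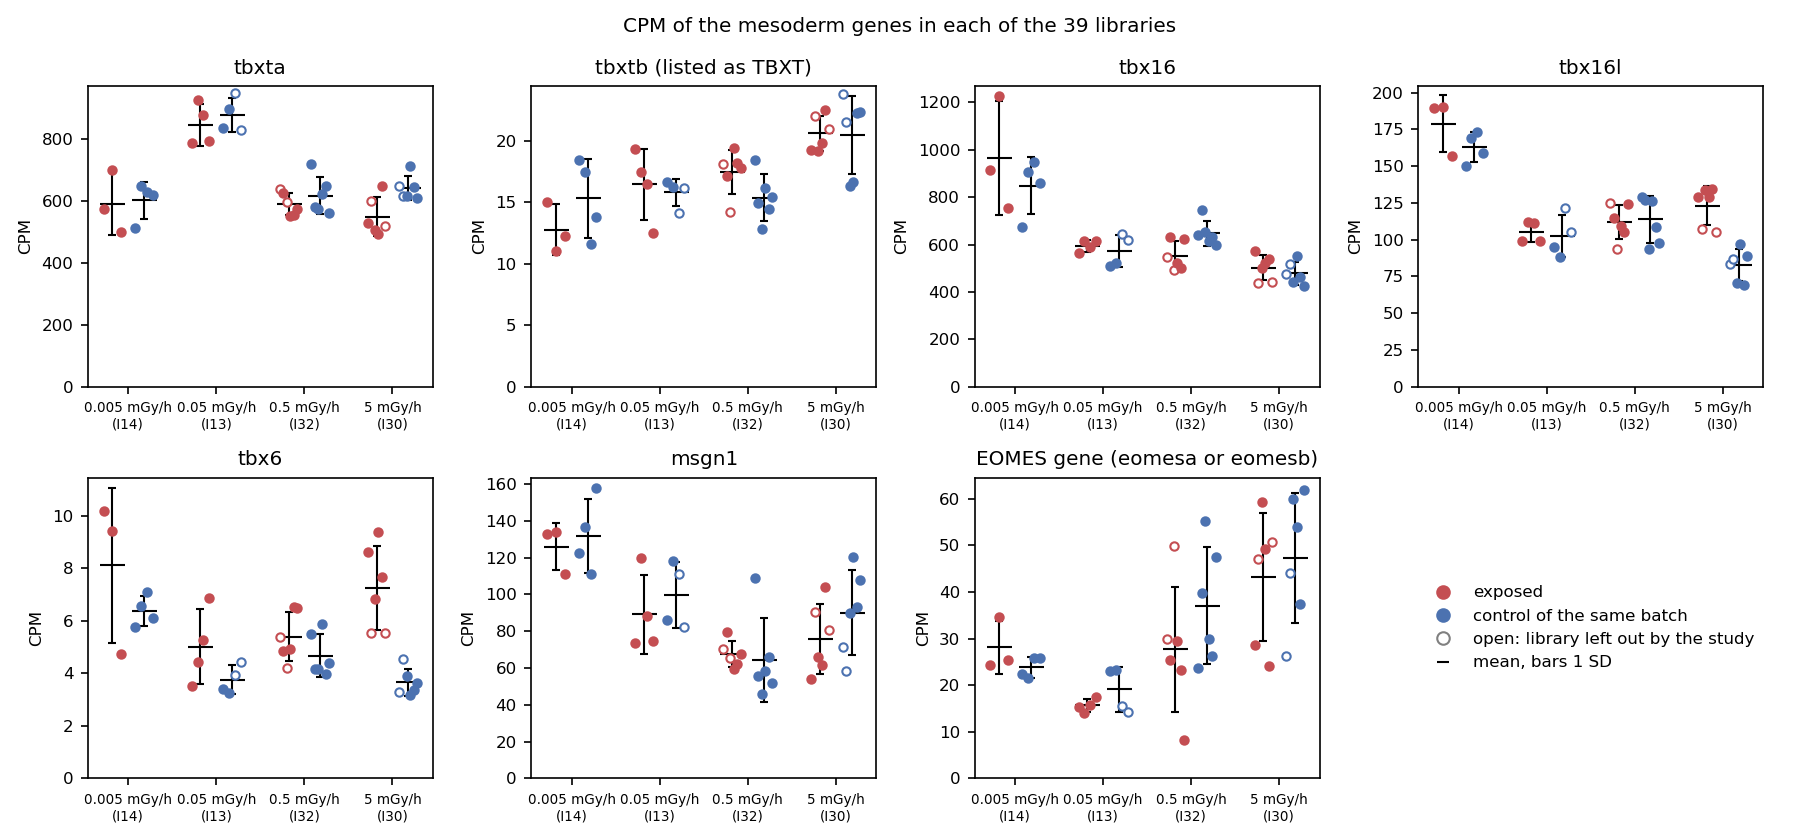
CPM of each gene (vertical axis, starting at 0) in each of the 39 libraries, grouped by dose rate with exposed libraries (red) left of the controls of the same batch (blue). Open points are the 8 libraries the study left out, dashes are means and bars 1 SD. At 5 mGy/h the 6 exposed libraries lie above all 6 controls for tbx16l and tbx6, while the groups overlap for the other genes.

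Of the members, tbx16l and tbx6 rose at 5 mGy/h, and no other one passed the test. These were 2 of 7 members tested, against 9.1% of all 15015 genes called in either direction and 4.57% called higher at an adjusted p under 0.05. tbx6 had a lowest value of 5.53 CPM, a median of 7.26 and a highest of 9.40 in the exposed libraries, against a lowest of 3.19, a median of 3.49 and a highest of 4.56 in controls. The groups did not overlap, and the lowest exposed libraries were replicates 2 and 6, which the study had left out. tbx6 averaged 7.27 ± 1.60 CPM in exposed embryos and 3.65 ± 0.518 CPM in controls (SD, n = 6 each). Its fitted log2 fold change was 0.95 ± 0.16 (SE), or 1.94-fold (edgeR quasi-likelihood test, adjusted p = 0.00507).

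tbx16l, a T-box gene once listed under the name tbx6, changed less in fold but as regularly between libraries. In exposed embryos its lowest value was 105 CPM, its median 129 and its highest 134, against 68.9, 85.1 and 97.0 CPM for the lowest, median and highest control. Again no exposed library fell within the control range, and the exposed libraries split into 4 between 129 and 134 CPM and replicates 2 and 6 at 107 and 105 CPM. The means were 123 ± 13.3 CPM in exposed embryos and 82.6 ± 10.98 CPM in controls (SD, n = 6 each). The log2 fold change was 0.55 ± 0.10 (SE), or 1.46-fold (edgeR, adjusted p = 0.00632). Groups that did not overlap with the exposed side higher were found for 2.29% of all genes tested at this dose rate.

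Ordered by p, tbx6 had rank 32 and tbx16l rank 44 among the 15015 genes. The study's own threshold was a fold change of at least 1.5 with an adjusted p under 0.01. Applied to edgeR on all libraries, it called tbx6 and not tbx16l, whose fold change lay just under the limit. That threshold was passed by 0.533% of all genes. The paper used DESeq2 on its selected libraries. It names both genes among deregulated mesoderm factors, without a dose rate for each. Without the libraries the study left out, the log2 fold changes were 1.18 ± 0.17 (SE) for tbx6 and 0.68 ± 0.11 for tbx16l (edgeR, adjusted p = 0.000415 and 0.000531), and both genes passed the stricter threshold, which 7.97% of all genes then passed. With every library of the batch thinned to the depth of its shallowest, the log2 fold changes were 1.07 and 0.55. In these whole embryos, more cells expressing a gene and more RNA per cell cannot be told apart.

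The Brachyury copies and tbx16 did not pass the test at 5 mGy/h. tbxta ranged over 493 to 650 CPM in exposed libraries with a median of 524, against 609 to 713 CPM with a median of 630 in controls. In all, 5 of the 6 exposed libraries were below the lowest control, and replicate 5, at 650 CPM, lay within the control range. The log2 fold change was -0.25 ± 0.08 (SE, edgeR adjusted p = 0.0637). tbxtb averaged 20.6 ± 1.42 CPM in exposed embryos and 20.5 ± 3.18 CPM in controls (SD, n = 6 each), and its log2 fold change of -0.03 had an interval of 2 SE reaching between -0.25 and 0.20. tbx16 averaged 503 ± 53.8 CPM in exposed embryos and 480 ± 48.1 CPM in controls, with an interval from -0.14 to 0.22 on the log2 scale. For tbx16 and tbxtb a change of the size seen in tbx16l therefore lay outside the interval.

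msgn1 depended on which libraries were used. It had values of 53.7 to 104 CPM in exposed libraries (median 73.2), against 58.1 to 120 CPM in controls (median 91.6), so the groups overlapped almost fully. Over all libraries the log2 fold change was -0.27 ± 0.17 (SE, edgeR adjusted p = 0.305). Without the 4 libraries the study left out of this batch it was -0.55 ± 0.16 (adjusted p = 0.0212, with 25.4% of all genes called). Those 4 were the 2 lowest controls, at 71.2 and 58.1 CPM, and exposed libraries at 90.3 and 80.6 CPM. EOMES spread widely within each group, from 24.0 to 59.3 CPM in exposed embryos and from 26.3 to 61.9 CPM in controls, and did not pass the test (log2 fold change -0.15 ± 0.21, adjusted p = 0.667).

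**Figure D2:**
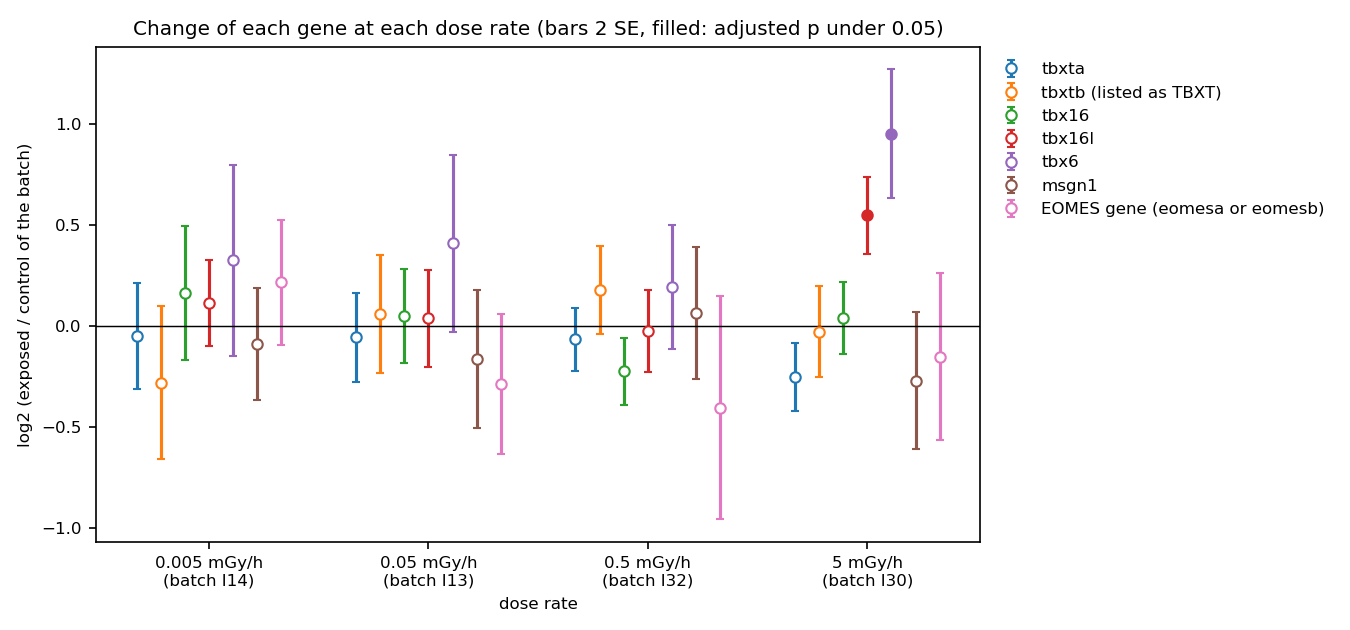
Log2 fold change of exposed over control embryos of the same batch (vertical axis) for each gene at each dose rate (horizontal axis, low to high). Bars are 2 SE, and filled points have an adjusted p under 0.05. The filled points are tbx16l at 0.55 and tbx6 at 0.95, both at 5 mGy/h.

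No member passed the test at the lower dose rates. At 0.005 mGy/h, 0 of 7 members were called, against 0% of 13935 genes, and none had an unadjusted p under 0.05 by edgeR or by DESeq2. At 0.05 mGy/h, 0 of 7 were called, against 0.00632% of 15814 genes, and again none had an unadjusted p under 0.05 by either tool. At 0.5 mGy/h, 0 of 7 were called by edgeR and by DESeq2, against 7.51% of 14906 genes by edgeR. Only tbx16 had an unadjusted p under 0.05 by edgeR, beside 3788 of the 14906 genes.

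tbx6 was higher on average in exposed embryos at each of these dose rates, without passing the test. At 0.005 mGy/h the exposed libraries had 10.2, 9.40 and 4.74 CPM, against 5.75, 6.55, 7.09 and 6.11 CPM in controls. Of the exposed libraries, 2 were thus above every control and the other was below every control, and the log2 fold change was 0.32 ± 0.24 (SE, edgeR adjusted p = 0.683). At 0.05 mGy/h the exposed libraries had 3.52, 4.43, 5.27 and 6.86 CPM, against 3.39, 3.24, 3.94 and 4.44 CPM in controls. The log2 fold change there was 0.41 ± 0.22 (adjusted p = 0.9997). In the 0.5 mGy/h batch tbx6 averaged 5.39 ± 0.932 CPM in exposed embryos and 4.68 ± 0.807 CPM in controls (SD, n = 6 each; log2 fold change 0.19 ± 0.15, adjusted p = 0.453).

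tbx16l stayed close to its controls below 5 mGy/h. At 0.5 mGy/h its lowest, median and highest values were 94.0, 112 and 125 CPM in exposed embryos, against 93.9, 118 and 129 CPM in controls. The 2 ranges lay almost on top of each other. Its log2 fold change was 0.11 for embryos at 0.005 mGy/h, 0.04 at the 0.05 mGy/h rate and -0.03 under 0.5 mGy/h, with intervals of 2 SE reaching no higher than 0.33.

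Of the other members over all libraries, tbx16 at 0.5 mGy/h had the lowest adjusted p below 5 mGy/h. It averaged 554 ± 61.9 CPM in exposed embryos and 647 ± 52.2 CPM in controls (SD, n = 6 each), and its log2 fold change was -0.23 ± 0.08 (SE, edgeR adjusted p = 0.104). Without the libraries the study left out it was -0.19 (adjusted p = 0.211). EOMES at 0.5 mGy/h ranged from 8.19 to 49.8 CPM in exposed embryos and from 23.6 to 55.2 CPM in controls. The lowest value belonged to exposed replicate 6 and the highest exposed value to replicate 3, a library the study had left out. The log2 fold change of EOMES was -0.40 ± 0.28 over all libraries (adjusted p = 0.379) and -0.77 ± 0.27 without the excluded ones (adjusted p = 0.0762). At 0.05 mGy/h, EOMES had 14.1 to 17.5 CPM in exposed embryos, against 23.1 and 23.3 CPM in the controls the study kept and 15.6 and 14.3 CPM in those it left out. Its log2 fold change there was -0.29 over all libraries and -0.59 without the excluded ones (edgeR adjusted p = 0.276, DESeq2 adjusted p = 0.0638).

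Whether the response at 5 mGy/h differed from the others was tested on all 39 libraries. It differed from that at 0.5 mGy/h for tbx16l (difference of log2 fold changes 0.60 ± 0.14 SE, edgeR adjusted p = 0.00816) and for tbx6 (0.79 ± 0.24, adjusted p = 0.0300), 2 of 7 members against 13.2% of 17255 genes. The call for tbx6 was lost when any of 6 libraries was left out, namely exposed replicate 1 or 4 or control replicate 1 or 5 of batch I30, or exposed or control replicate 4 of batch I32, with values of 0.70 to 0.78 and adjusted p of 0.0506 to 0.0597. Against 0.05 mGy/h no member was called (0.133% of genes) and against 0.005 mGy/h none was called (0% of genes). By edgeR, 2 of 7 members, tbx16l and tbx6, had an unadjusted p under 0.05 in each of these contrasts. The differences were 0.54 and 0.57 against 0.05 mGy/h, where 1640 of 17255 genes had such a p. They were 0.44 and 0.63 against 0.005 mGy/h, where 1296 of 17255 genes had such a p. Both genes were already known to rise at 5 mGy/h, which enters each contrast.

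In a fit over the 4 dose rates with the batch as a term, tbx6 was the only member called (log2 fold change 0.50 ± 0.10 SE, edgeR adjusted p = 0.0184), 1 of 7 against 0.666% of 17255 genes. Without the batch irradiated at 5 mGy/h the value was 0.30 ± 0.12 (edgeR adjusted p = 0.357), and the call was lost. In that fit 0 of 16909 genes were called, so the loss was not particular to tbx6. Without the libraries the study left out, tbx16l was called too (0.27 ± 0.08, adjusted p = 0.0229), and the share called over all genes was then 12.4%.

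The members also differed between batches with no exposure at all. Their level in controls passed the F test over the 4 batches for 7 of 7 members tested, against 77.4% of 16249 genes, so that this was a property of most genes. tbx16l averaged 163 ± 10.2 CPM in controls of batch I14 (n = 4) and 82.6 ± 10.98 CPM in controls of batch I30 (n = 6), a 1.97-fold range. tbx16 and tbx6 were also highest in I14 and lowest in I30, by 1.77 and 1.75 fold, whereas EOMES was highest in I30 and lowest in I13, by 2.48 fold. The rise of tbx16l at 5 mGy/h was therefore smaller than the span of its own control level between batches, and exposed embryos of batch I30 at 123 CPM remained below the controls of I14. For tbx6 the rise, 1.94-fold in the fit, was larger than the span of its control means, and exposed embryos of batch I30 averaged 7.27 CPM, against 6.38 CPM in controls of I14.

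A ratio of 2 genes within a library does not depend on how libraries are scaled, and was added after the values had been seen. At 5 mGy/h, tbx16l reached 24.5 ± 1.39 CPM per 100 CPM of tbx16 in exposed embryos and 17.3 ± 2.097 in controls (SD, n = 6 each). The lowest exposed library was at 22.5 and the highest control at 21.0. For tbx6 the ratio was 1.43 ± 0.201 in exposed embryos and 0.767 ± 0.124 in controls, and the groups did not overlap either. Each of these gave p = 0.00216 in a two-sided exact permutation test, the smallest that 6 against 6 libraries allow, and 0.00866 after adjustment over the 8 ratios tested. The groups of tbx16l and tbx6 were already known not to overlap, and tbx16 to change little. A small p was therefore close to fixed beforehand, the adjustment does not cover that choice, and these p-values are no separate support.

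Both ratios at 0.5 mGy/h were also higher on average in exposed embryos, at 20.3 ± 1.64 against 17.6 ± 2.34 for tbx16l and 0.980 ± 0.184 against 0.729 ± 0.152 for tbx6 (SD, n = 6 each). The groups overlapped, and the adjusted p of the exact permutation tests were 0.0866 and 0.0693. tbx16, which averaged lower in these exposed libraries, enters both ratios. At 0.005 and 0.05 mGy/h the adjusted p were between 0.183 and 0.943 by the same exact test.

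**Figure D3:**
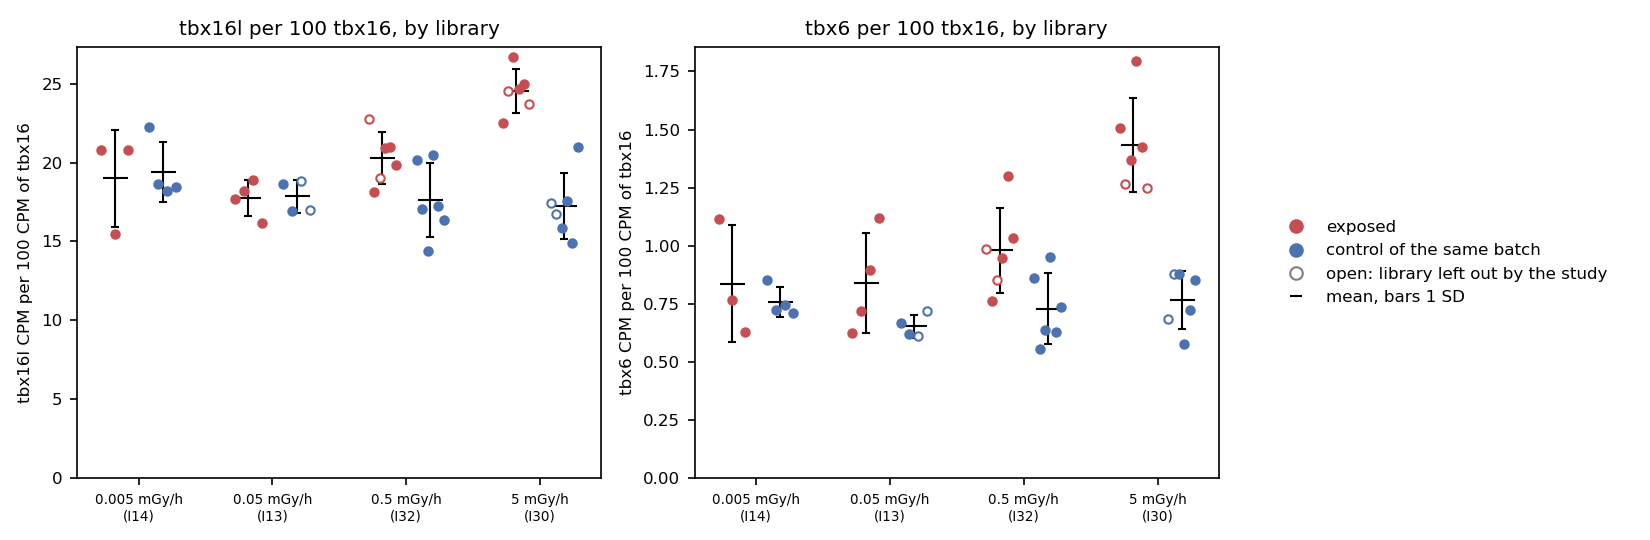
CPM of tbx16l (left) and tbx6 (right) per 100 CPM of tbx16 in the same library, by dose rate, with exposed libraries (red) left of controls of the batch (blue). Open points are libraries the study left out, dashes are means and bars 1 SD. At 5 mGy/h the exposed means are 24.5 and 1.43 against 17.3 and 0.767 in controls, with no overlap.

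Of the signals that act upstream of the T-box genes, some fell at 5 mGy/h, where 3 of the 7 members were higher and 4 lower. Of 12 mesoderm inducers tested, 3 were called lower and none higher, against 4.53% of all genes called lower. In all, 11 of the 12 had a negative log2 fold change, called or not, and the median was -0.08, beside -0.05 over all genes. The list held 15 symbols, and fgf8a, wnt8a and bmp2b were not tested because 2 genes share each of these symbols. The 3 genes called lower, fgf4, fgf3 and fgf17, all encode Fgf ligands, while the ligand gene fgf24 was tested and not called. fgf4 fell by 1.40 on the log2 scale, to 0.522 ± 0.142 CPM in exposed embryos, against 1.37 ± 0.270 CPM in controls (SD, n = 6 each; edgeR adjusted p = 0.00649). It was near the limit of detection, with 1 to 89 counts per library over the 39 libraries. fgf3 fell by 0.51, to 11.98 ± 1.53 CPM in exposed embryos, against 16.7 ± 1.30 CPM in controls (adjusted p = 0.0141), and fgf17 fell by 0.43 (adjusted p = 0.0212). The exposed and control ranges of each of the 3 did not overlap, as for 1.04% of all genes with the exposed side lower. Without the libraries the study left out, fgf17 was no longer called (adjusted p = 0.0814). The median log2 fold change of the 12 inducers was then -0.04, beside -0.07 over all genes, so the list no longer lay below the other genes.

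Among 27 genes that act downstream of or beside the T-box factors, 5 rose and 3 fell at 5 mGy/h, against 4.57% of all genes called higher and 4.53% lower, with a median log2 fold change of 0.12 beside -0.05 over all genes. cdx1a, a caudal homeobox gene of the posterior body, averaged 33.9 ± 4.92 CPM in exposed embryos and 17.8 ± 3.52 CPM in controls (SD, n = 6 each; log2 fold change 0.90 ± 0.12 SE, adjusted p = 0.00176). cyp26a1, which encodes a retinoic acid degrading enzyme, rose by 0.54 (adjusted p = 0.00176), with 95.5 ± 6.30 CPM in exposed embryos and 64.0 ± 3.20 CPM in controls. mixl1, a homeobox gene of the mesendoderm, fell by 0.69 (adjusted p = 0.00589). Without the libraries the study left out, 8 of these genes rose and 2 fell, while the share called over all genes was 25.4%.

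Of 26 downstream genes at 0.5 mGy/h, 2 rose and 3 fell, against 5.79% of all genes called higher and 1.72% called lower. her1 and her7, the oscillating repressors of the segmentation clock, fell by 0.48 and 0.35 on the log2 scale (edgeR adjusted p = 0.0113 and 0.0258). her1 averaged 70.5 ± 9.65 CPM in exposed embryos and 98.2 ± 9.32 CPM in controls (SD, n = 6 each). twist2, a mesenchymal transcription factor near the limit of detection, rose to 0.741 ± 0.289 CPM in exposed embryos, against 0.272 ± 0.159 CPM in controls (adjusted p = 0.0455). Of 12 inducers, 1 rose, the Wnt ligand wnt5b (log2 fold change 0.33, adjusted p = 0.0468). None of the inducers and downstream genes was called by edgeR at the 2 lowest dose rates. There 4 of 26 downstream genes at 0.005 mGy/h, 1 of 25 at 0.05 mGy/h and 0 inducers had an unadjusted p under 0.05. Over all genes such a p was found for 1461 of 13935 at 0.005 mGy/h and for 217 of 15814 at 0.05 mGy/h.

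Of the other T-box genes, 7 could be tested at 5 mGy/h and none was called by edgeR, with a median log2 fold change of -0.10. An unadjusted p under 0.05 was found for 2 of these 7 and for 4178 of all 15015 genes, a similar share. In embryos at 0.5 mGy/h, mgaa, whose product joins a T-box to a Max-binding domain, rose by 0.47 (adjusted p = 0.0134), with 97.7 ± 10.1 CPM in exposed embryos and 70.6 ± 11.2 CPM in controls (SD, n = 6 each).

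**Figure D4:**
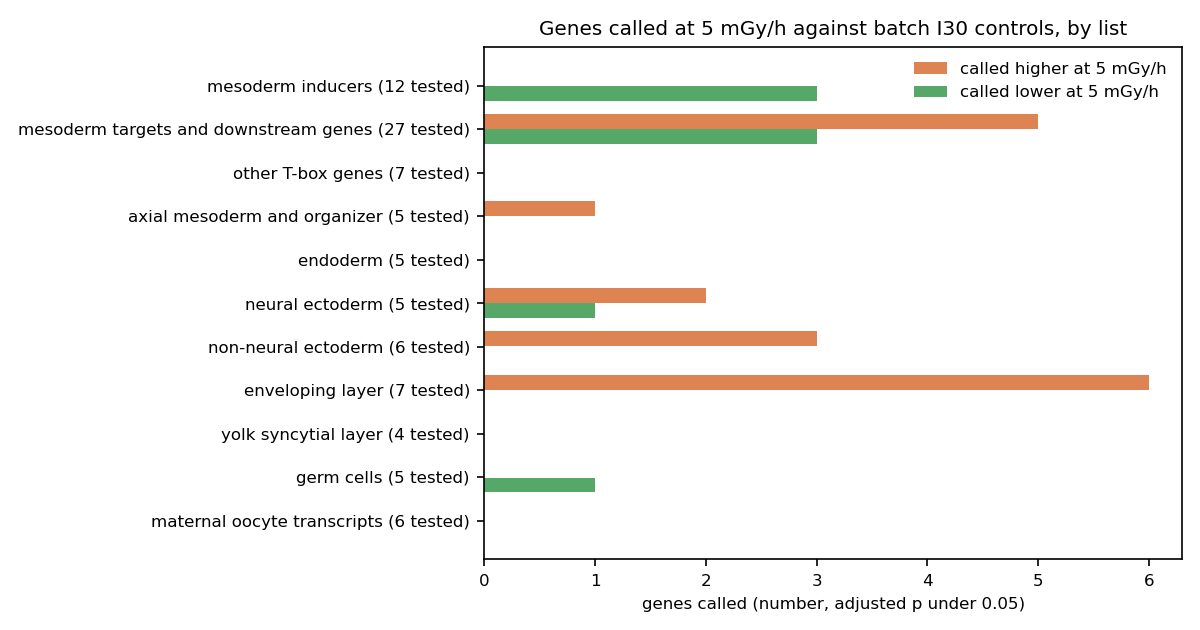
Number of genes called higher (orange) and lower (green) at 5 mGy/h against controls of batch I30, by list, with the number of genes tested in each list beside its name. The enveloping layer has 6 of 7 genes higher, the mesoderm inducers 3 of 12 lower, and the downstream genes 5 higher and 3 lower of 27.

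Markers of other tissues moved at 5 mGy/h together with tbx16l and tbx6. Of 7 markers of the enveloping layer, the outermost epithelium of the embryo, 6 rose and none fell, with a median log2 fold change of 0.41. Over all genes 4.57% were called higher and 4.53% lower, which is the scale for each count of markers at this dose rate. Their summed level was 5712 to 8754 CPM in exposed libraries and 4415 to 6297 CPM in controls. Of 6 markers of non-neural ectoderm, 3 rose and none fell, with sums of 414 to 498 CPM in exposed libraries and 371 to 395 CPM in controls. dlx3b, a homeobox gene of the placode and fin field, rose by 1.47 on the log2 scale (adjusted p = 0.00176). Without the libraries the study left out, 6 and 3 genes of these 2 lists were again higher, with 25.4% of all genes called in either direction.

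The axial mesoderm list had 1 of 5 genes higher, chrd, the BMP antagonist of the organizer, which averaged 442 ± 63.8 CPM in exposed embryos and 295 ± 29.8 CPM in controls (SD, n = 6 each; adjusted p = 0.00649). In the neural ectoderm list 2 of 5 rose (otx2b by 1.01 and otx2a by 0.29 on the log2 scale) and 1 fell (sox2). None of 5 endoderm markers was called by edgeR (1 at an unadjusted p under 0.05, beside 4178 of all 15015 genes). Of 5 germ cell markers 1, ddx4, fell by 0.40 (adjusted p = 0.0142). In the libraries the study selected, 1 of 5 endoderm markers was called higher, with 25.4% of all genes called in either direction. Genes of later muscle and blood were at or near 0, with a summed level of 0.516 to 0.885 CPM in exposed libraries and 0 to 0.645 CPM in controls, though actc1b, a muscle actin, reached 5.96 CPM in 1 library. The other 4 genes had no more than 17 counts in any library. The part of tissue proportions or developmental timing in the rise of tbx16l and tbx6 was not tested.

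At 0.5 mGy/h tbx16l and tbx6 were not called (log2 fold changes -0.03 and 0.19), and none of the 7 enveloping layer markers was called by edgeR. All 7 markers had a negative log2 fold change, with a median of -0.17. Of the 7, 3 had an unadjusted p under 0.05, as had 3788 of all 14906 genes. At 0.5 mGy/h 1 of 5 endoderm markers was called higher (foxa2), as were 1 of 5 of axial mesoderm (frzb) and 1 of 4 of the yolk syncytial layer (apobb.1). Of 5 neural ectoderm markers, 1 was called lower (sox3). Over all genes 5.79% were called higher and 1.72% lower at this dose rate. The enveloping layer markers leaned upward at 0.005 mGy/h, as did tbx16l and tbx6 (log2 fold changes 0.11 and 0.32), which were not called either. Of these markers, 6 of 7 had a positive log2 fold change there, with a median of 0.22 beside -0.008 over all genes. None of them passed the edgeR test, and 2 had p below 0.05 before adjustment, as had 1461 of all 13935 genes. In embryos at 0.05 mGy/h 3 of the 7 were higher and 4 lower, with a median of -0.017, and none was called by edgeR (0 with p below 0.05 before adjustment). There tbx16l and tbx6 had log2 fold changes of 0.04 and 0.41, and were not called.

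The 2 genes that rose at 5 mGy/h also varied together. With each library's log2 CPM centred on its batch mean, tbx6 and tbx16l had a Pearson correlation of 0.74 over the 39 libraries, which share batches, depth differences and the exposure itself. Among 8623 genes with a mean of at least 5 CPM, this put tbx16l at rank 44 for tbx6 and tbx6 at rank 322 for tbx16l. tbxta and msgn1 formed another pair, with a correlation of 0.67. tbx16 and tbx16l correlated at 0.50, and tbxta with its copy tbxtb at -0.07.

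Gene names here are as the name table lists them. The genes most like tbx16l over the 39 libraries were KPNA2, TPX2 and si:ch211-222l21.1, with correlations between 0.88 and 0.89. Their log2 fold changes at 5 mGy/h were 0.29 to 0.55. The exposure was part of the variation on which these genes were matched, so their changes at 5 mGy/h are a description. TPX2 encodes a spindle assembly factor and KPNA2 a nuclear import receptor. Most like tbx6 were the tubulin genes tuba8l2 and TUBA1A and the chaperone gene fkbp11 (0.80 to 0.81), with log2 fold changes at 5 mGy/h of 0.73, 0.68 and 0.83. tbx16 was nearest to AMMECR1, selenoh and ADD1 (0.87 to 0.89), with log2 fold changes of 0.07 to 0.12.

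tbxta was most like RHOV, mych and HEY1 (0.79 to 0.83), tbxtb most like ERBB3, znf638 and ZDHHC9 (0.76 to 0.78), and msgn1 most like golga7, si:ch73-39o22.3 and ARL3 (0.81 to 0.83). EOMES had the closest companions, si:ch1073-83m3.1, atp2a2a and ppp1r3c2b, with correlations of 0.95.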

How the data were processed

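Stranded mRNA libraries were made from whole shield-stage embryos. The authors mapped the reads with STAR to GRCz11 and deposited a table of raw read counts per gene for each of the 39 libraries, with unstranded counts and counts for each strand. The last of these columns was used, since the other strand held at most 2.09% of the gene counts. Reads at several places were not counted, so reads shared with close copies of a gene are lost. Libraries were tested per batch with edgeR 4.0.16 in R 4.3.3 (TMM, genes with at least 10 counts in enough libraries and 15 in total, quasi-likelihood test, Benjamini-Hochberg over all genes tested, called at an adjusted p under 0.05). Of the libraries the study selected for its tests, 31 are among these 39, and that selection was run as an alternative. Other alternatives were DESeq2 1.42.0, other scalings and filters, unstranded counts, thinning and each library left out. With DESeq2 on that selection, 1345 genes passed the study's threshold at 5 mGy/h, more than the study reported. CPM used 1 TMM scaling over the 39 libraries, and log2 values had a prior count of 0.5. SE is the log2 fold change divided by the square root of F. The tests were tested on simulated counts. Libraries of a group differed by more than sampling noise (chi-square per degree of freedom from 4.12 upwards), so each counted as 1 replicate.

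The genes and lists were chosen with earlier results of these data known. All members were named, and for each list up to 3 called genes with the smallest p per dose rate. Symbols of these lists that 2 genes shared or that matched no gene were left out. The 3 genes most like each member were taken by Pearson correlation over the 39 libraries, centred by batch, among genes with a mean of at least 5 CPM. Figures were drawn with matplotlib 3.10.9. Sequences and transcript lengths were not used here.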

Additional observations from a re-analysis of the deposited data

Results flagged for a closer look

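msgn1 in the controls of batch I32 had 1 library far from the others. Replicate 1 was at 109 CPM, with the next highest at 66.1 CPM and the lowest at 45.6 CPM, a gap of 0.675 of the group's range. This was the sole such case among 49 groups of libraries examined. Chance gives such a gap in about 1 of every 20 groups, so 1 case is no more than chance would give. In the same library tbxta (719 CPM), tbx16l (129 CPM) and tbxtb (18.5 CPM) were also highest of their group, and EOMES (23.6 CPM) was lowest. tbx16 and tbx6 were at neither end.

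The effects at 5 and at 0.5 mGy/h differed for tbx16l (0.60 on the log2 scale, edgeR adjusted p = 0.00816) and for tbx6 (0.79, adjusted p = 0.0300). The dose rates were applied in different batches, so the dose rate and the batch cannot be told apart here.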

How the results depend on the processing

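The calls of tbx16l and tbx6 at 5 mGy/h held in every alternative run at the threshold of 0.05. Their log2 fold changes lay between 0.50 and 0.60 for tbx16l and between 0.87 and 1.03 for tbx6 with any 1 library left out (edgeR, adjusted p up to 0.0238 and 0.0196). The number of members called was then 2 to 3 at 5 mGy/h and 0 at each lower dose rate, the third being tbxta without exposed replicate 2 or 5 or control replicate 2 (adjusted p from 0.0381). tbxta was also called under the stricter filter on low counts (-0.26, adjusted p = 0.0451). Members called numbered 1 at 5 mGy/h under the study's threshold, and 2 and 0 over all dose rates with its selected libraries and without batch I30. Without that batch 0 of 16909 genes were called. The number differing between 5 and 0.5 mGy/h was 1 to 2 with a library left out. Members differing between control batches numbered 6 to 7, tbxtb being the exception with the selected libraries.

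Signs turned only in values that were not called. For tbxtb the selected libraries gave -0.014 at 0.05 mGy/h, 0.034 at 5 mGy/h (0.080 with DESeq2, an alternative chosen after seeing the data) and 0.11 for 5 minus 0.05 mGy/h. In embryos at 5 mGy/h tbxtb was at 0.0019 with DESeq2, 0.027 with thinning and 0.0065 in 1 fit over all libraries, and over all dose rates at -0.035 without batch I32. For tbx16 the selected libraries gave 0.044 for 5 minus 0.005 mGy/h and 0.086 over all dose rates, and leaving out batch I32 gave 0.10. With 1 library left out, tbx16 ranged over -0.042 to 0.29 at 0.005 mGy/h, -0.0038 to 0.11 at 0.05 mGy/h, -0.0080 to 0.091 at 5 mGy/h, -0.28 to 0.085 for 5 minus 0.005 mGy/h, -0.046 to 0.083 for 5 minus 0.05 mGy/h and -0.041 to 0.017 over all dose rates. tbxtb ranged over -0.035 to 0.17 at 0.05 mGy/h, -0.089 to 0.037 at 5 mGy/h and -0.16 to 0.049 for 5 minus 0.05 mGy/h. The others were tbx16l at 0.05 mGy/h (-0.029 to 0.13) and 0.5 mGy/h (-0.076 to 0.039), tbxta at 0.005 mGy/h (-0.18 to 0.039), and msgn1 at 0.005 mGy/h (-0.17 to 0.018), 0.5 mGy/h (-0.015 to 0.29) and for 5 minus 0.05 mGy/h (-0.19 to 0.092). The cause was not tested.

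Exposed and control libraries share replicate numbers. Same-numbered libraries correlated between -0.35 and 0.35 after centring, with a mean between 0.033 and 0.093 at each dose rate. These values do not settle whether the numbers pair the libraries, so a block on the replicate number was run as an alternative. With the replicate block, 2 members were called at 5 mGy/h (adjusted p = 0.0291 for tbx6 and 0.0294 for tbx16l) and 0 at the others. Counts over all genes moved more. At 0.005 mGy/h edgeR called 0 genes (1461 at an unadjusted p under 0.05), DESeq2 136 and the block 459. At 0.5 mGy/h the counts were 1120, 1822 with DESeq2, 1995 with the block and 1752 with the selected libraries. At 5 mGy/h they were 1366, 2196, 626 and 3690. With 1 library left out they ranged over 0 to 155 at 0.005 mGy/h (155 without control replicate 1), 225 to 1806 at 0.5 mGy/h (lowest without exposed replicate 4, highest without exposed replicate 3) and 297 to 2428 at 5 mGy/h (lowest without exposed or control replicate 3, highest without control replicate 2), so the shares called over all genes rest in part on single libraries. The 35 to 100 counts of tbx6 in batch I30 controls limit its precision.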
